A study of Danio rerio with 10 samples.

Results

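The nuclear-encoded genes of the mitochondrial respiratory chain are described here in zebrafish embryos that carry the fn10a mutation. The set holds every gene symbol with the prefix nduf (complex I), sdha, sdhb, sdhc or sdhd (complex II), uqcr or the name cyc1 (complex III), cox4 to cox8 (complex IV) or atp5 (complex V). That naming rule uses no measured value, but it was chosen with earlier results of these data known. By it 82 of the 14563 gene symbols listed for each library belong to the set. They comprise 75 genes of the complexes themselves, with 31 in complex I, 5 in complex II, 9 in complex III, 16 in complex IV and 14 in complex V. The other 7 share the prefixes but not the role: 5 assembly factors of complex I (ndufaf1, ndufaf2, ndufaf3, ndufaf5 and ndufaf7), 1 of complex II (sdhaf2), and atp5s. The genes ndufa4 and ndufa4l were placed in complex IV, where the mammalian NDUFA4 protein is found, in spite of their prefix. By its prefix cox7a3, whose mammalian product joins complexes III and IV into supercomplexes, was counted in complex IV.

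Complexes I to IV pass electrons from NADH and succinate to oxygen. Complexes I, III and IV, but not II, pump protons across the inner mitochondrial membrane. Complex V, the ATP synthase, uses the returning protons to make ATP. Most subunits are encoded in the nucleus, translated in the cytosol and imported, where they join a few subunits made inside the organelle in complexes of fixed stoichiometry. Many accessory subunits are very small proteins with short transcripts, while the catalytic subunits that carry flavin, iron-sulfur clusters or nucleotide sites are larger.

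All embryos were of the TL strain and were taken at 36 hours post fertilization, and polyadenylated RNA was sequenced. Whole embryos, 30 per library, gave 2 libraries in each of 3 groups: fn10a-/- mutants, their siblings (a mixture of fn10a+/- and +/+ embryos labelled as wild-type siblings) from the same heterozygote crosses, and wild-type controls from TL crosses. Nuclear and cytoplasmic RNA gave 1 library each of mutants and of siblings, with the same genotypes. The labels name no gene for fn10a. From knowledge of the study it is an allele of eftud2. Its protein is a GTPase in the U5 particle of the spliceosome, the machinery that removes introns.

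The reads on listed transcripts numbered 34060890 to 82752349 in the whole-embryo libraries, 17696776 to 19195327 in cytoplasm, 14141991 in sibling nuclei and 7164408 in mutant nuclei. As a check of the labels, eftud2 stood at 11.3 and 3.60 RPKM (reads per kilobase of transcript, scaled to the authors' library total) in mutants, 28.1 and 9.91 in siblings and 30.2 and 10.5 in controls, replicates 1 and 2 in that order. It was lower in each mutant library than in the library of the same replicate number of both other groups (log2 -1.35 against siblings, with an adjusted p of 0.0183 in edgeR's quasi-likelihood test). Replicate number parted the whole-embryo libraries along the leading principal component, and fold changes come from a fit with a term for it. The labels do not say whether replicates were separate clutches, and every p-value therefore reflects library-to-library spread that may be technical. In the fractions eftud2 had 6.83 RPKM in mutant nuclei and 16.5 RPKM in sibling nuclei, against 7.21 RPKM in mutant cytoplasm and 18.9 RPKM in sibling cytoplasm. The nuclear RNA planned as a check, malat1, was not among the listed symbols. Another nuclear RNA, rn7sk, is a small RNA that normally has no poly(A) tail and was picked after its values were seen. In mutants rn7sk had 44.7 RPKM (537 reads) in nuclei and 7.85 RPKM (116 reads) in cytoplasm. It had 2.21 RPKM (30 reads) in the library labelled sibling nuclei and 3.22 RPKM (44 reads) in sibling cytoplasm. Among the 8631 genes compared in the fractions, rn7sk had the highest nucleus to cytoplasm difference in mutants. It also had the highest mutant minus sibling difference in nuclei. Because it was picked at that extreme, its enrichment in mutants and not in siblings cannot check the fraction labels or their purity. Whether the 2 nuclear libraries are alike in purity was not tested, and this bears on every fraction value below.

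The 82 genes took 0.996% and 1.26% of the listed reads in the mutant libraries, 0.957% and 1.17% in the sibling libraries and 0.814% and 1.03% in the control libraries, replicates 1 and 2 in that order. At each replicate number the mutant share was the highest and the control share the lowest. In the fractions the share of listed reads was 1.79% in mutant nuclei and 1.39% in sibling nuclei, against 1.43% in mutant cytoplasm and 1.40% in sibling cytoplasm, so by this share the mutant nuclear library stood apart from the other 3. Scaled to the authors' library total, the 75 genes of the complexes summed to 4147 RPKM in mutant nuclei and 4835 RPKM in sibling nuclei. They summed to 6443 RPKM in mutant cytoplasm and 6318 RPKM in sibling cytoplasm, so by that measure mutant nuclei were lowest.

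Respiratory chain transcripts were abundant. The 79 genes with a mean of 1 RPKM or more over the 6 whole-embryo libraries had a median level of 41.2 RPKM, against 5.55 RPKM over all 10147 genes that passed this filter, and 53 of them lay in the top 10% of those genes. The 3 genes below the filter were ndufs8b at 0.0176 RPKM, sdhda at 0.0870 RPKM and cox6a2, whose mammalian counterpart is the heart and skeletal muscle isoform, at 0.300 RPKM. The genes nearest above it were cox7a1 at 1.03 RPKM and atp5s at 1.18 RPKM. Levels differed between complexes, with a median per gene of 129 RPKM for complex V, 81.3 RPKM for complex IV, 53.4 RPKM for complex III, 37.1 RPKM for complex I and 22.3 RPKM for complex II, and 7.80 RPKM for the assembly factors. Ranges overlapped, from 38.6 to 219 RPKM in complex V and from 11.6 to 111 RPKM in complex I. This order is of transcript levels per length and is not a measure of protein.

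**Figure D1:**
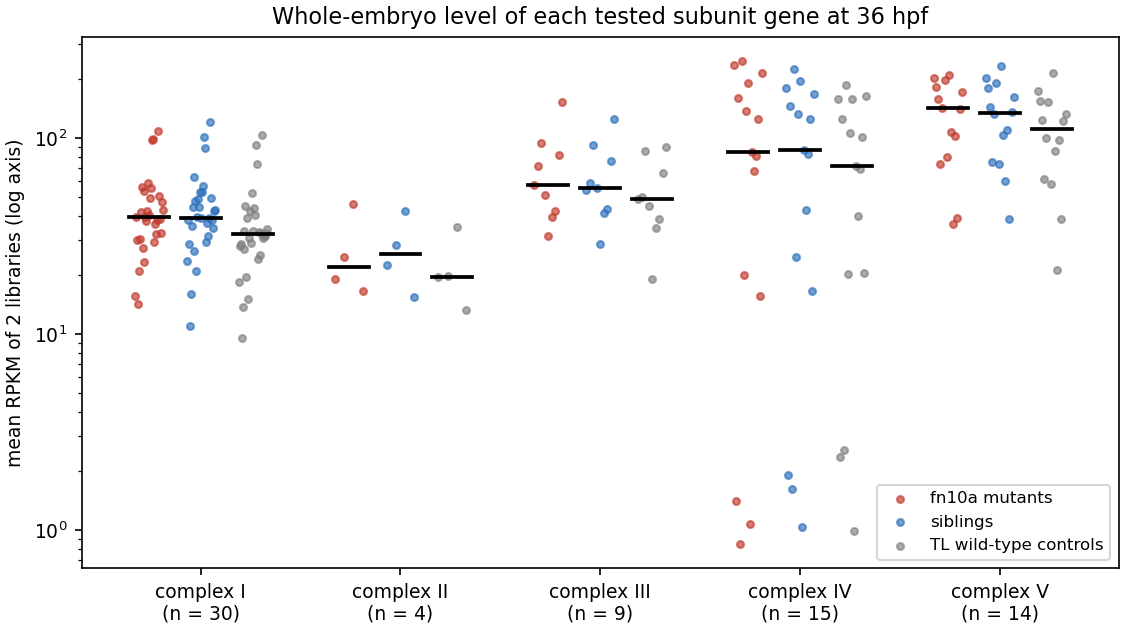
Mean RPKM of 2 libraries (vertical log axis) for each tested subunit gene, as points, by complex and by group, with fn10a mutants in red, siblings in blue and TL wild-type controls in grey; black bars are medians over genes. Complex V genes have the highest median and complex II genes the lowest in every group, and 3 complex IV genes (cox4i2, cox5b2 and cox7a1) lie near the filter of 1 RPKM.

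The most abundant gene of complex V was atp5g3b, which encodes the c subunit of the membrane ring. It had 178 and 242 RPKM in mutants, 213 and 249 RPKM in siblings and 161 and 269 RPKM in controls, and the 3 groups overlapped. In complex IV it was cox6a1, with 374 and 119 RPKM in mutants, 356 and 94.0 RPKM in siblings and 282 and 90.6 RPKM in controls. Here the mutant value was the highest of the 3 groups at each replicate number, while the groups overlapped because replicate 2 was lower than replicate 1 throughout. The highest means in complexes III, I and II belonged to uqcrq (a small subunit next to cytochrome b) at 122 RPKM, ndufs5 (an accessory subunit of the membrane arm) at 111 RPKM and sdhc (a membrane anchor) at 41.2 RPKM. Most duplicated genes were used unequally: cox4i1 made up 98.3% to 99.5% of the summed RPKM of the cox4i1 and cox4i2 pair in the 6 whole-embryo libraries, and ndufa4l made up 86.1% to 93.8% of the ndufa4l and ndufa4 pair. In the pair uqcrc2b and uqcrc2a, which encode core protein 2 of complex III, uqcrc2b made up 51.1% to 65.7%.

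The comparison of mutants with siblings asks whether embryos of the same crosses differ in respiratory chain transcripts when fn10a is homozygous. None of the 79 tested genes passed an adjusted p of 0.05 by edgeR's quasi-likelihood test (Benjamini-Hochberg adjustment across the 10147 genes tested), where 1.16% of all genes were called higher and 0.581% lower. At an unadjusted p under 0.05 there were 8 of 79, against 23.2% of all genes, and DESeq2 called 4: cox7a3, ndufa12 and ndufa4l higher (6.08% of all genes) and ndufaf2 lower (5.73%). Fits that leave out a library have 1 residual degree of freedom and a single library in its group. With control replicate 1 left out of the shared fit the same edgeR test called 5 genes higher and 3 lower, against 11.1% and 10.9% of all genes. With control replicate 2 left out it called 4 higher and 3 lower, against 10.6% and 10.9%. In bulk embryos fewer cells of a type and less RNA per cell cannot be told apart, and this holds for each difference below. The median log2 fold change was 0.07 over the 79 genes and -0.00 over all genes tested. By complex the median was 0.06 for I, -0.00 for II, 0.13 for III, 0.04 for IV and 0.09 for V, and 0.03 for the assembly factors. Without mutant replicate 1 the medians of complexes I and IV turned to -0.05 and -0.05. Of the 79 genes 39 were higher and 15 lower in the mutant library at both replicate numbers, against 38.8% and 37.9% of all genes. The RPKM of mutants lay wholly above that of siblings in 4 genes (6.07% of all genes) and wholly below it in 6 (8.55%).

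**Figure D2:**
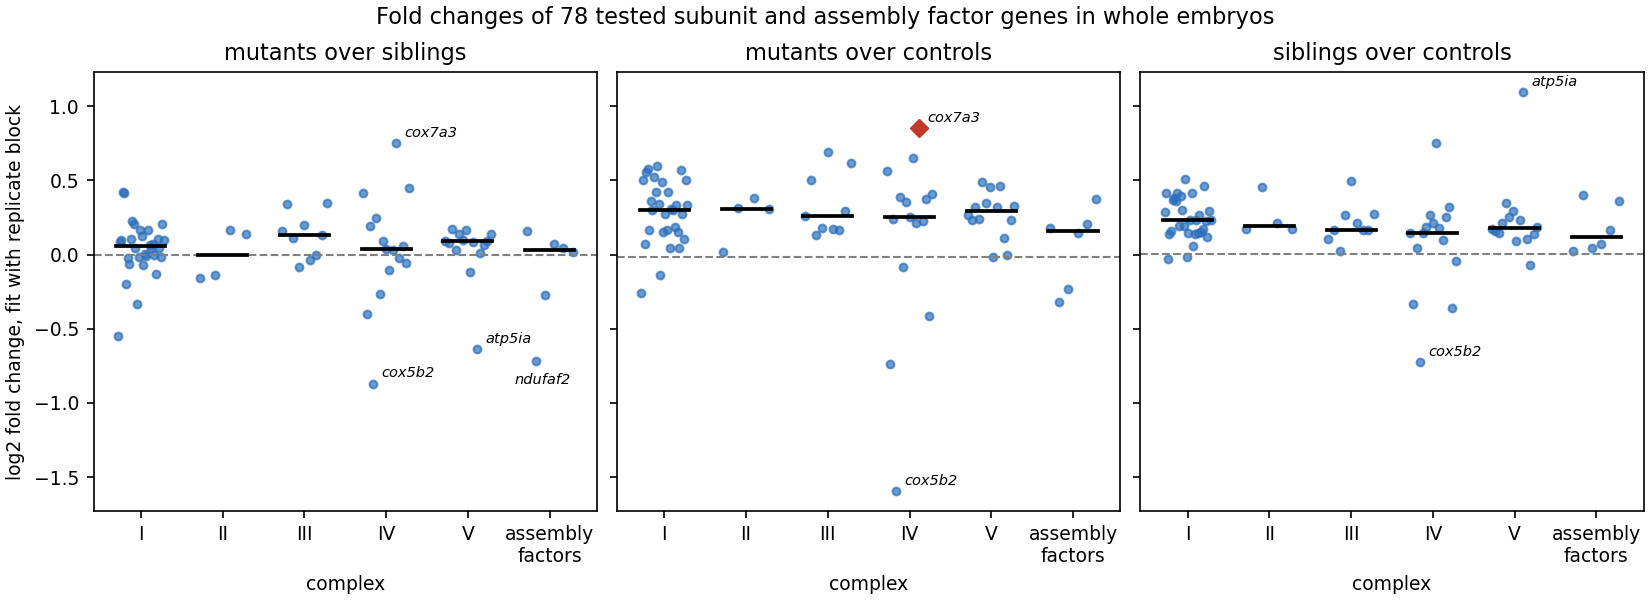
Log2 fold change of each tested subunit and assembly factor gene (points) by complex for mutants over siblings, mutants over controls and siblings over controls, from the fit with the replicate number as a term; black bars are medians over the genes of a complex and the dashed line is the median of all tested genes. The red diamond is cox7a3, the only gene of the set past an adjusted p of 0.05, and the medians of all 5 complexes lie above the dashed line in both comparisons with controls.

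The gene with the smallest adjusted p was cox7a3, now named cox7a2l (danRer7 chromosome 12, 26725035 to 26729228, minus strand, transcript of 662 bases). In mammals its product, also known as SCAF1, joins complexes III and IV into supercomplexes. It had 99.1 and 35.9 RPKM in mutants, 66.1 and 20.0 RPKM in siblings and 62.3 and 17.2 RPKM in controls. The mutant library was the highest at each replicate number, and siblings lay close to controls. Against siblings the log2 fold change was 0.75 (SE 0.133, adjusted p = 0.0656), or 1.69-fold, with 0.71 within replicate 1 and 0.79 within replicate 2.

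Other complex IV genes lay in the same direction without passing the test. The subunit gene ndufa4l, now ndufa4a, had 243 and 187 RPKM in mutants, 211 and 122 RPKM in siblings and 200 and 128 RPKM in controls (log2 0.45 against siblings, SE 0.119, adjusted p = 0.120). The gene cox4i1, which encodes the widely expressed form of subunit 4, had 238 and 230 RPKM in mutants, 185 and 176 RPKM in siblings and 147 and 169 RPKM in controls. Its mutant libraries did not overlap those of either other group, but the log2 fold change of 0.42 had an SE of 0.133 and an adjusted p of 0.156. Its paralogue cox4i2, the oxygen-sensitive form in mammals, lay the other way at a low level, with 1.27 and 1.55 RPKM in mutants, 1.87 and 1.93 RPKM in siblings and 1.84 and 2.89 RPKM in controls (log2 -0.40 against siblings, adjusted p = 0.393). The lowest fold change of the whole set was that of cox5b2, a paralogue of subunit 5b, with 0.993 and 0.704 RPKM in mutants, 2.07 and 1.18 RPKM in siblings and 2.98 and 2.11 RPKM in controls. Mutants lay below siblings and siblings below controls at both replicate numbers (log2 -0.87 against siblings, SE 0.277, adjusted p = 0.156).

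**Figure D3:**
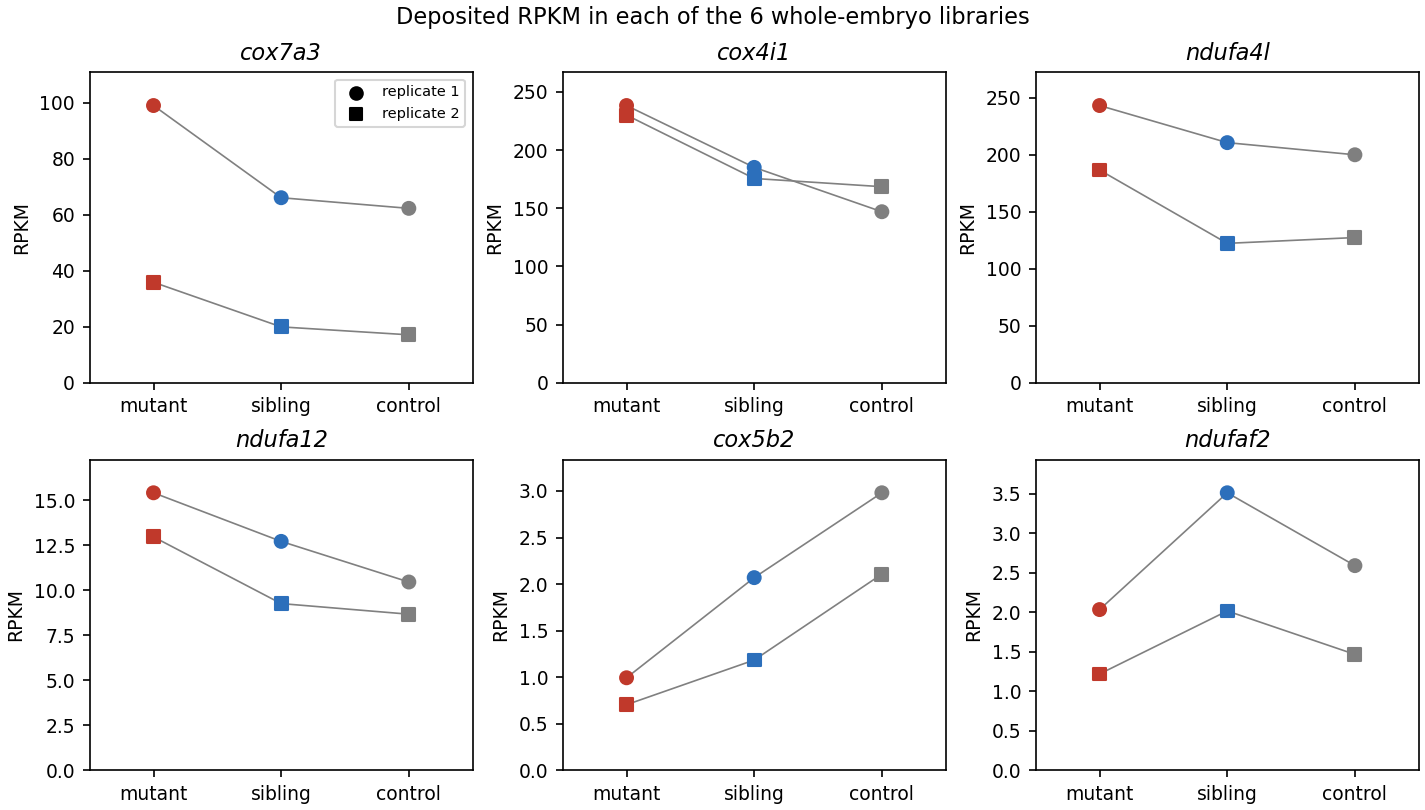
Deposited RPKM (vertical axes from 0) of 6 genes in each whole-embryo library, with mutants left, siblings in the middle and controls right; circles are replicate 1, squares replicate 2, and grey lines join libraries of the same replicate number. In cox7a3, cox4i1, ndufa4l and ndufa12 both mutant points lie above the sibling and control points of their replicate number, and in cox5b2 both lie below; in ndufaf2 both lie below as well.

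Complex I showed no gene past the test against siblings. The highest fold changes were those of ndufa12 (log2 0.42, SE 0.116, adjusted p = 0.126), an accessory subunit of the electron input module, and ndufa13 (log2 0.42, SE 0.161, adjusted p = 0.208), an accessory subunit of the membrane arm. The gene ndufa12 had 15.4 and 13 RPKM in mutants, 12.7 and 9.25 RPKM in siblings and 10.5 and 8.66 RPKM in controls, with mutants above both other groups and no overlap. The lowest were ndufa1, a membrane arm subunit (log2 -0.55, SE 0.155, adjusted p = 0.131), and ndufb10 (log2 -0.33, SE 0.247, adjusted p = 0.465). ndufa1 had 15.6 and 15.5 RPKM in mutants, 27.7 and 19.5 RPKM in siblings and 18.2 and 18.6 RPKM in controls, so that in this record mutants were below all other libraries and sibling replicate 1 was the highest. Its other transcript record, with fewer reads, had 12.9 and 15.385 RPKM in mutants, 24.1 and 19.6 RPKM in siblings and 15.36 and 18.7 RPKM in controls. There mutants were lowest at each replicate number, but mutant replicate 2 was not below control replicate 1. The 7 tested core subunits, which hold the flavin and iron-sulfur clusters, had a median of 0.07, and 6 of them were above 0. The assembly factor ndufaf2 had 2.03 and 1.22 RPKM in mutants, 3.51 and 2.02 RPKM in siblings and 2.59 and 1.47 RPKM in controls. It was lowest in mutants at each replicate number (log2 -0.72 against siblings, SE 0.171, adjusted p = 0.103).

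In complex III the 4 small subunit genes (uqcrq, uqcr11, uqcrh and uqcrb) had log2 fold changes above 0 in mutants over siblings within both replicate numbers after scaling, with a median of 0.24. None passed the test, and the largest was uqcrq with 0.35 (SE 0.168, adjusted p = 0.281). The 3 core protein genes uqcrc1, uqcrc2a and uqcrc2b had a median of -0.04. In complex II the catalytic sdha and sdhb lay at -0.16 and -0.14 and the membrane anchors sdhc and sdhdb at 0.17 and 0.14, with adjusted p from 0.421 to 0.570 in the same test. In complex V 12 of 14 genes lay above 0. The exceptions were atp5g3b (log2 -0.11) and atp5ia, which encodes subunit e, with 56.2 and 16.5 RPKM in mutants, 95.4 and 24.8 RPKM in siblings and 23.0 and 19.2 RPKM in controls. Its values in siblings were the highest of the 3 groups, and the log2 fold change of -0.64 had an SE of 0.420.

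Against wild-type controls from other crosses most fold changes of the set lay above 0, and 1 gene passed the test. The gene cox7a3 rose by a log2 of 0.85 (1.81-fold, SE 0.133, with an adjusted p of 0.0416 in edgeR's quasi-likelihood test), and it was the single gene called of 79, against 1.91% of all genes called higher and 1.57% lower. At an unadjusted p under 0.05 there were 26 of 79 genes, against 28.1% of all genes. The call for cox7a3 was lost when either sibling or either mutant library was left out (adjusted p of 0.129 to 0.284). It was also lost with listed reads as library size (adjusted p = 0.0571) and with no replicate term (adjusted p = 0.849). DESeq2 called 12 genes higher (8.51% of all genes), among them cox7a3, ndufa12, ndufa9, cox4i1 and uqcrc2a, and 1 lower (8.45%), cox5b2. The next fits keep a single control library and 1 residual degree of freedom. Without control replicate 1 the edgeR test called 4 genes higher and 4 lower, against 11.3% and 12.1% of all genes. Without control replicate 2 it called 22 higher and 1 lower, against 8.45% and 8.68%, so the direction of the calls depended on the control library.

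The median log2 fold change of mutants over controls was 0.27 over the 79 genes and -0.01 over all genes tested, and 68 of 79 lay above 0, against 48.7% of all genes. The complexes lay close together, with medians of 0.30 for I, 0.31 for II, 0.26 for III, 0.25 for IV and 0.29 for V. Within replicate 1 the median over the 79 genes was 0.37 and within replicate 2 it was 0.18, the same direction in both. The RPKM of mutants lay wholly above that of controls in 19 genes (8.62% of all genes) and wholly below it in 4 (7.8%). At both replicate numbers 56 genes were higher and 7 lower, against 32.6% and 34.1% of all genes. The lowest fold change was that of cox5b2 (log2 -1.59, SE 0.276, adjusted p = 0.0510), which missed the threshold, and ndufa4 lay at -0.42 (adjusted p = 0.114) while its paralogue ndufa4l lay at 0.41 (adjusted p = 0.110). The largest values in complex III were uqcrc2a (log2 0.69, adjusted p = 0.0930) and uqcrq (log2 0.62, adjusted p = 0.0964). uqcrc2a had 37.4 and 26.0 RPKM in mutants, 36.1 and 21.5 RPKM in siblings and 19.3 and 18.7 RPKM in controls, with mutants and siblings both above controls.

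Siblings too stood above controls over most of the set. Siblings over controls gave no call in the set by edgeR's quasi-likelihood test, as for all genes (0.0% higher, 0.0% lower). There were 9 of 79 genes at an unadjusted p under 0.05 against 8.65% of all genes, and DESeq2 called none (0.306% of all genes higher, 0.621% lower). Without control replicate 2 the edgeR test called 2 higher, atp5ia and ndufs6, and 0 lower, against 0.887% and 0.424% of all genes. The median log2 fold change was 0.18 over the 79 genes and 0.00 over all genes, with 71 of 79 above 0, against 50.3% of all genes. By complex it was 0.23 for I, 0.19 for II, 0.17 for III, 0.14 for IV and 0.18 for V. It was 0.28 over the 79 genes within replicate 1 and 0.12 within replicate 2. The RPKM of siblings lay wholly above that of controls in 20 genes (5.4% of all genes) and wholly below it in 2 (2.54%). At both replicate numbers 56 genes were higher and 4 lower, against 27.1% and 28.6% of all genes. The comparisons with controls share the control libraries, and those of mutants share the mutant libraries, so their values are not independent of each other. Other gene groups were set beside it in the same comparisons. The 61 mitochondrial ribosomal protein genes had medians of 0.36 in mutants over controls (54 above 0) and 0.26 in siblings over controls (58 above 0). The 38 genes of a proteasome list chosen by prefix had 0.17 (29 above 0) and 0.21 (37 above 0) in the same order. That list takes in psmc3ip, which does not encode a proteasome subunit. The 79 cytosolic ribosomal protein genes had -0.10 (18 above 0) and 0.03 (46 above 0).

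Marker genes of cells that are rich in mitochondria or that differed between groups were summed per library. The 14 skeletal muscle markers summed to 9023 and 2918 RPKM in mutants, 11321 and 3564 RPKM in siblings and 8953 and 3020 RPKM in controls. The 6 cardiac markers summed to 91.3 and 28 RPKM in mutants, 61.8 and 18.4 RPKM in siblings and 82.5 and 23.4 RPKM in controls. The 6 erythroid markers summed to 4762 and 6275 RPKM in mutants, 9463 and 12000 RPKM in siblings and 5735 and 13334 RPKM in controls, and were lowest in mutants at both replicate numbers. The 6 neuronal markers summed to 166 and 71.6 RPKM in mutants, 183 and 65.1 RPKM in siblings and 205 and 82.1 RPKM in controls. By gene, 3 of 14 skeletal muscle markers lay above 0 in mutants over siblings (median log2 fold change -0.25), 10 of 14 in mutants over controls (0.13) and 14 of 14 in siblings over controls (0.32). For the cardiac markers it was 6 of 6 (0.49), 2 of 6 (-0.09) and 0 of 6 (-0.39), and for the erythroid markers 0 of 6 (-1.01), 1 of 6 (-0.80) and 4 of 6 (0.10), in the same order. For the neuronal markers it was 5 of 6 (0.31), 4 of 6 (0.05) and 0 of 6 (-0.28). In the fractions the neuronal markers summed to 37.9 RPKM in mutant nuclei and 88.0 RPKM in sibling nuclei, against 83.8 RPKM in mutant cytoplasm and 91.3 RPKM in sibling cytoplasm. The erythroid markers summed to 503 RPKM in mutant nuclei and 1036 RPKM in sibling nuclei, against 5340 RPKM in mutant cytoplasm and 8555 RPKM in sibling cytoplasm. The skeletal muscle markers summed to 14793 RPKM in mutant nuclei and 23084 RPKM in sibling nuclei, against 13802 RPKM in mutant cytoplasm and 18039 RPKM in sibling cytoplasm. The cardiac markers were higher in mutants in both fractions, with 29.9 RPKM in mutant nuclei and 21.6 RPKM in sibling nuclei, against 71.2 RPKM in mutant cytoplasm and 44.2 RPKM in sibling cytoplasm. All markers had reads in every library, and the part of these cell types in the respiratory chain values was not tested.

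The fraction libraries ask where these transcripts were found in the cell. Each difference below is one of log2(RPKM + 1), minus its median over 8631 genes, so 0 is the median gene. Those genes had a mean of 1 RPKM or more in the 4 libraries. Ratios below are of deposited RPKM and are not centred. With 1 library per fraction and genotype there was no replicate check and no test. As deposited, the median gene was lower in mutant nuclei than in sibling nuclei by a log2 of -0.84 and differed by 0.02 between the cytoplasmic libraries. Without that centring the 72 subunit genes had a median of -0.22 in mutant minus sibling nuclei, with -0.17 in complex I, -0.80 in complex II, -0.45 in complex III, 0.04 in complex IV and -0.35 in complex V. A value above 0 below is therefore an excess in deposited RPKM for some genes only. The filter of 1 RPKM over the 4 libraries was passed by 78 members, 72 of them subunits.

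In siblings the subunit transcripts lay slightly to the cytoplasmic side. The median nucleus to cytoplasm difference was -0.18 in complex I, 0.01 in complex II, -0.17 in complex III, -0.15 in complex IV and -0.18 in complex V. As deposited, without centring, the median over complexes I to V was -0.57 in mutants and -0.38 in siblings, so the signs in mutants below are turned in deposited RPKM. With TMM scaling of the counts, also without centring, the medians were 0.95 in mutants and -0.11 in siblings. With a pseudocount of 5 those of complexes III and V in mutants turned to -0.13 and -0.08. Of the 78 genes 64 lay below 0 in siblings, against 50.0% of all genes. The range was narrow, from -0.42 (ndufa13) to 0.63 (the assembly factor ndufaf7). Of all 499 genes under 750 bases 395 lay below 0 in siblings, with a median of -0.26. The 41 members of that length had a median of -0.19. Below 0 were also all 79 cytosolic ribosomal protein genes, all 38 of the proteasome list and 45 of 61 mitochondrial ribosomal protein genes. Of 16 genes of a tricarboxylic acid cycle list 5 lay below 0. In mutants the 78 genes spread out. The medians were 0.48 in complex I, 0.08 in complex II, 0.33 in complex III, 0.69 in complex IV and 0.43 in complex V, with single genes from -0.73 (uqcrc1) to 1.23 (cox7a1, at about 1 RPKM). In mutants 36 of 78 genes were at 0.5 or more, against 21.7% of all genes, and in siblings 1 of 78, against 10.5%.

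**Figure D4:**
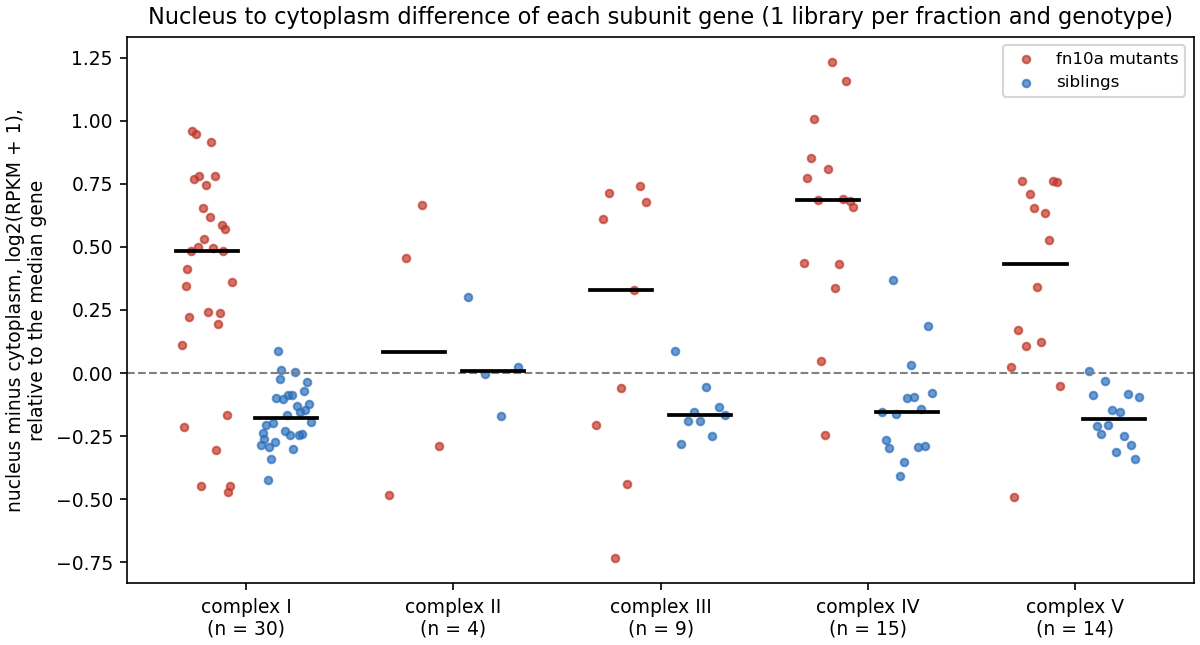
Nucleus minus cytoplasm difference of log2(RPKM + 1), relative to the median gene (dashed line), for each subunit gene by complex, with mutants in red on the left of siblings in blue; black bars are medians over genes, with 1 library per fraction and genotype. Sibling points lie within -0.42 and 0.37, mutant points between -0.73 and 1.23, and complexes I, III, IV and V have medians above 0 in mutants and below 0 in siblings at the pseudocount of 1 used here (in III and V not at 5, nor in any of the 4 in deposited RPKM without centring).

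The nuclear libraries held the spread. Mutant minus sibling, the nuclear medians were 0.67 in complex I, 0.04 in complex II, 0.39 in complex III, 0.88 in complex IV and 0.48 in complex V. In the cytoplasm they were -0.01, 0.03, 0.01, -0.01 and 0.01 in the same order. At 0.5 or more there were 40 of 78 genes in the nucleus, against 22.3% of all genes, and 0 of 78 in the cytoplasm, against 8.78% of all genes. At -0.5 or less there were 3 in the nucleus, against 20.7% of all genes, and 3 in the cytoplasm, against 10.3%. The 3 in the cytoplasm were cox4i2 (-0.89), atp5ia (-0.58) and ndufb10 (-0.54), whose fold changes of mutants over siblings in whole embryos also lay below 0 without passing the test. Over the 78 genes the cytoplasmic difference followed the whole-embryo fold change (Pearson's r 0.74, Spearman's rho 0.64) more closely than the nuclear difference did (0.32 and 0.38). These are descriptions across genes, which share libraries and depth and are not independent. Over 8556 genes the same values were 0.82 and 0.81 for the cytoplasm and 0.36 and 0.31 for the nucleus.

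The nuclear difference ranged widely between single genes. The complex IV gene cox7c (danRer7 chromosome 5, 48696815 to 48698411, plus strand, transcript of 361 bases) had 255 RPKM in mutant nuclei and 166 RPKM in sibling nuclei, against 238 RPKM in mutant cytoplasm and 237 RPKM in sibling cytoplasm. Its ratio of mutant to sibling was 1.53 in the nucleus (95% interval 1.46 to 1.61) and 1.0 in the cytoplasm (0.960 to 1.05). The complex V gene atp5b, now atp5f1b (chromosome 11, 13393416 to 13398588, plus strand, 1877 bases), encodes the catalytic beta subunit and had 111 RPKM in mutant nuclei and 260 RPKM in sibling nuclei, against 328 RPKM in mutant cytoplasm and 322 RPKM in sibling cytoplasm. Its ratio was 0.427 in the nucleus (0.416 to 0.439) and 1.02 in the cytoplasm (1.0 to 1.04). These ratios are of deposited RPKM without centring, where the median gene stood at 0.56 in the nucleus (on RPKM + 1). Relative to the median gene the nuclear differences were 1.45 for cox7c and -0.38 for atp5b at the pseudocount of 1. The 2 genes thus lay on opposite sides in the nucleus and at nearly the same level in both cytoplasms. The intervals are exact binomial ones from the read counts and cover counting error only, not the spread between embryos.

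Roles differed within complexes III and I. In complex III the 4 small subunit genes, of 428 to 723 bases, had nuclear differences of 0.88 to 0.99. uqcrq, with 64.9 RPKM in mutant nuclei, 58.3 RPKM in sibling nuclei, 84.7 RPKM in mutant cytoplasm and 76.5 RPKM in sibling cytoplasm, had the largest. The 3 core protein genes, of 1654 to 1679 bases, had -0.55 (uqcrc1), -0.45 (uqcrc2b) and 0.33 (uqcrc2a). uqcrc1 (chromosome 6, 24021496 to 24036273, plus strand) had 21.8 RPKM in mutant nuclei and 58.8 RPKM in sibling nuclei, against 78 RPKM in mutant cytoplasm and 76.4 RPKM in sibling cytoplasm, a nuclear ratio of 0.371 (0.349 to 0.394). Here the paralogues uqcrc2a and uqcrc2b, of 1667 and 1654 bases, lay on opposite sides of the median gene at the pseudocount of 1. In complex I the 23 accessory subunit genes, with a median length of 602 bases, had a median nuclear difference of 0.72, and the 7 core subunit genes, with a median of 1529 bases, one of 0.02. The core subunit gene ndufs8a had 8.84 RPKM in mutant nuclei and 21.4 RPKM in sibling nuclei, against 27.4 RPKM in mutant cytoplasm and 25.7 RPKM in sibling cytoplasm. The accessory subunit genes ndufa7 (1.34), ndufa5 (1.18) and ndufb7 (1.15) had the largest nuclear differences of complex I.

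In complex II the 4 genes stood in the order of their transcript length, with the shortest highest. The flavoprotein gene sdha, of 2539 bases and the longest of the set, had the lowest nuclear difference of all 78 genes (-0.65), with 8.30 RPKM in mutant nuclei and 25.1 RPKM in sibling nuclei, against 26.1 RPKM in mutant cytoplasm and 23.6 RPKM in sibling cytoplasm. The anchor gene sdhc, of 645 bases, had 0.87, with 33.8 RPKM in mutant nuclei and 33.1 RPKM in sibling nuclei, against 44.7 RPKM in mutant cytoplasm and 43.6 RPKM in sibling cytoplasm. In complex V the catalytic head and the stalk, 4 genes each, had medians of 0.26 and 0.26, and the membrane ring and the small membrane subunits, 3 genes each, had 0.91 and 0.72. Their median lengths were 1445, 868.5, 833 and 451 bases in that order, so the stalk and the ring differed at similar median lengths. Complex IV, whose genes in the set apart from cox7a3 encode small subunits around a mitochondrially encoded core, had no gene below 0 at the pseudocount of 1. Its values ran from 0.16 (cox4i2) to 1.45 (cox7c). The gene cox4i2 had 0.720 RPKM (23 reads) in mutant nuclei and 1.74 RPKM (63 reads) in sibling nuclei, a ratio of 0.413. At so low a level its value depends on the pseudocount. cox7a3 was the second highest of complex IV at 1.20, and it was also the highest of all 78 genes in the cytoplasm at 0.46, with 34.1 RPKM in mutant nuclei, 26.3 RPKM in sibling nuclei, 53.2 RPKM in mutant cytoplasm and 37.9 RPKM in sibling cytoplasm.

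**Figure D5:**
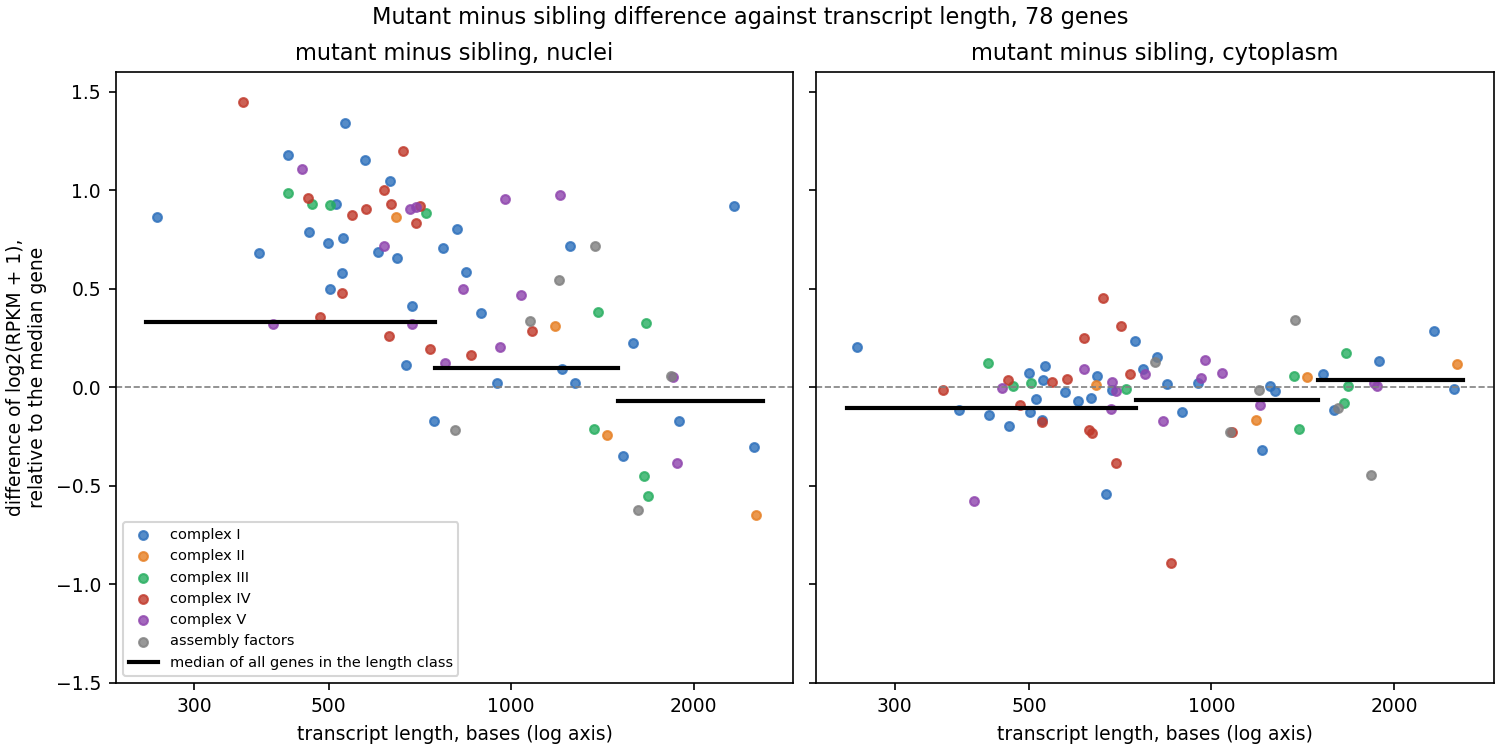
Mutant minus sibling difference of log2(RPKM + 1), relative to the median gene, against transcript length in bases (log axis) for 78 genes in nuclei (left) and cytoplasm (right); points are genes coloured by complex and black bars are medians of all genes in 3 length classes. At the pseudocount of 1 used here, the genes under 750 bases lie mostly above 0.5 in nuclei and those of 1500 bases and over mostly below 0. In cytoplasm most points lie near 0 at every length.

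Across the 78 genes the nuclear difference was lower at greater log2 transcript length (Pearson's r -0.68, Spearman's rho -0.65), and the cytoplasmic one showed little relation to it (0.07 and 0.09). Over all 8631 genes the nuclear values were -0.11 and -0.12. With log2 genomic span (start to end of the record) they were -0.42 and -0.43 in the 78 genes and -0.17 and -0.18 over all genes. With the mean log2(RPKM + 1) of the 4 fraction libraries they were 0.32 and 0.37 in the 78 genes and 0.07 and 0.02 over all genes. These are descriptions across genes that share the same 2 libraries, with no test. Within complex I the nuclear values for transcript length were -0.60 and -0.59 (30 genes), within complex IV -0.55 and -0.49 (15 genes) and within complex V -0.51 and -0.36 (14 genes). By length, the 41 genes under 750 bases had a nuclear median of 0.87, the 24 of 750 to 1500 bases 0.36, and the 13 of 1500 bases and over -0.30, against 0.33, 0.10 and -0.07 over all genes of those lengths. Of the 41 short genes 31 were at 0.5 or more, against 41.7% of all genes under 750 bases, and in the cytoplasm 0, against 6.01%. In the nucleus to cytoplasm difference 28 of the 41 were at 0.5 or more in mutants, against 32.3% of all genes of that length, and 0 in siblings, against 4.41%. The mutant minus sibling difference of that quantity was at 0.5 or more in 35 of the 41, against 56.5%, and below 0 in 13 of all 78 genes, against 47.6% of all genes. An exception among the long genes was ndufa12, of 2333 bases, with 0.92, and one among the short genes was ndufab1a, of 747 bases, with -0.17. The difference between the medians of short and long members does not depend on the centring. Their positions relative to 0 do: as deposited, the nuclear medians were 0.03 for the short and -1.14 for the long members. The set's nuclear median also moved with the pseudocount, and the side of 0 for the long members is given at a pseudocount of 1 only. Mutant nuclei were also the library with the fewest listed reads and the smallest listed share of the authors' total, at 19.2% against 33.5% in sibling nuclei, 41.8% in mutant cytoplasm and 41.7% in sibling cytoplasm, and the part of this in the length relation was not tested.

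Other gene groups, chosen by prefix or pathway and not matched for length or level, were described the same way. The 61 mitochondrial ribosomal protein genes had a nuclear mutant minus sibling median of 0.63 and a cytoplasmic one of 0.02, close to the respiratory chain genes. The 79 cytosolic ribosomal protein genes had 0.38 in the nucleus and -0.17 in the cytoplasm. The 38 genes of the proteasome list had 0.04 and -0.03. For 16 genes of the tricarboxylic acid cycle list, which share the mitochondrial destination, the values were -0.33 and 0.01. The cycle list takes in the symbol dld, which in zebrafish names a Delta ligand and not the dehydrogenase dldh.

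Genes that act around the respiratory chain were read from the same fits, where 1.16% of all genes were called higher and 0.581% lower in mutants over siblings, and 1.91% and 1.57% in mutants over controls. Of 21 tested assembly factors outside the naming rule none passed the test in mutants over siblings or over controls by edgeR's quasi-likelihood test, with medians of 0.13 and 0.30. The copper chaperone gene cox17 of complex IV assembly was the highest, with 101 and 46.7 RPKM in mutants, 96.3 and 21.5 RPKM in siblings and 58.8 and 16.1 RPKM in controls (log2 1.17 against controls, adjusted p = 0.0607). surf1, another assembly factor of complex IV, lay at the other end against siblings, with 2.40 and 1.89 RPKM in mutants, 4.81 and 3.22 RPKM in siblings and 3.73 and 2.25 RPKM in controls (log2 -0.84, adjusted p = 0.0970). None of 13 electron carrier and coenzyme Q genes, 8 genes of ATP export or 16 of the tricarboxylic acid cycle list passed in either comparison of mutants by the same test.

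Among 9 tested regulators of mitochondrial biogenesis none passed. Against siblings 5 lay above 0 and 4 below, with a median log2 fold change of 0.06, and peo1 was highest at 0.48. The lowest against siblings was nrf1, which encodes a transcription factor that acts on many respiratory chain promoters in mammals. It had 7.12 and 4.17 RPKM in mutants, 13.8 and 6.90 RPKM in siblings and 14.7 and 5.64 RPKM in controls (log2 -0.80 against siblings, adjusted p = 0.0877 in edgeR's quasi-likelihood test). Both mutant values lay below those of the other groups at the same replicate number. Of 61 mitochondrial ribosomal protein genes mrps33 rose in mutants over siblings (log2 2.03, adjusted p = 0.0122) and over controls, where mrps31 rose too (log2 1.11, adjusted p = 0.0364, all in edgeR's quasi-likelihood test). mrps33 had 22.6 and 17.0 RPKM in mutants, 5.90 and 4.12 RPKM in siblings and 4.40 and 3.66 RPKM in controls, with no overlap. Its nuclear difference of 2.40 and cytoplasmic difference of 1.44 were above those of every respiratory chain gene.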

How the data were processed

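Polyadenylated RNA of 6 whole-embryo libraries and 4 fraction libraries was analysed from the deposited per-library tables. Reads were aligned with TopHat2 2.0.8 to danRer7, per the submitters' processing notes. Counting method, strand setting and annotation are not given in the sources used here. Whole-embryo libraries were strand-specific and fraction libraries unstranded, per the labels' protocols, so reads of overlapping genes may be shared in the fractions. The deposited read counts per transcript are the authors' values. The deposited RPKM values equal the authors' count divided by transcript length and by a library total, which was recovered from the deposited values. In whole embryos listed transcripts held 54.2% to 58.7% of that total in replicate 1 and 31.6% to 33.7% in replicate 2. In fractions they held 19.2% to 41.8%. The cause of the difference between replicate numbers was not tested.

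The record with the most reads was kept per symbol (4 of 82 members had several). Genes with a mean of 1 RPKM or more were tested on counts in R 4.3.3 with edgeR 4.0.16 (TMM scaling, quasi-likelihood test, Benjamini-Hochberg adjustment over 10147 genes, adjusted p under 0.05) with group and replicate number as terms, leaving 2 residual degrees of freedom. All 3 groups shared the fit, so leaving out a library of one group moves the tests of the others. Such a fit has 1 residual degree of freedom. The replicate term was planned from an earlier account of these data, in which replicates 1 and 2 differed in format and along a leading component. In a later check same-numbered libraries deviated together from their group means (correlations of 0.712 to 0.866). With 2 libraries against 2, an exact permutation test cannot go below p = 0.333. DESeq2 1.42.0, limma 3.58.1 on log2(RPKM + 1) or log2(RPKM + 5), other scalings and filters, the fit without the replicate term and leaving out each library were the alternatives. Fraction libraries had no replicates and were described by differences of log2(RPKM + 1) relative to the median gene, with a mean of 1 RPKM or more in the 4 libraries. Intervals of ratios are exact Clopper-Pearson ones at 95%.

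The genes and lists were chosen with earlier results of these data known. The plan was to name genes past the threshold, both members of duplicated pairs and, per complex, the most abundant gene. Per complex it also took in the 2 highest and 2 lowest fold changes in mutants over siblings. From the fractions came, per complex, the 2 highest and 2 lowest nucleus to cytoplasm differences in siblings. The 2 largest changes of that difference in either direction were taken as well. Not all genes that meet this plan are named above. The genes ndufaf2, ndufaf7, ndufab1a, ndufb7, ndufs6, uqcrh, atp5b and rn7sk, and those of the other lists, were named after their values were seen. Current gene names come from the RefSeq gene table, which matched 81 of 82 symbols. Coordinates are those of the files in danRer7. No sequence was used.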

Additional observations from a re-analysis of the deposited data

Results flagged for a closer look

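The nucleus to cytoplasm difference of 4 complexes had opposite signs in the 2 genotypes, relative to the median gene of each. In complex I the median was 0.48 in mutants and -0.18 in siblings. In complex III it was 0.33 in mutants and -0.17 in siblings, in complex IV 0.69 in mutants and -0.15 in siblings, and in complex V 0.43 in mutants and -0.18 in siblings. With 1 library per fraction and genotype the difference between genotypes was not tested, and in deposited RPKM without centring on the median gene all 8 values were below 0. With TMM scaling of the counts and no centring the 4 mutant values were 0.78 to 1.13 and the 4 sibling values -0.13 to -0.10. With a pseudocount of 5 in place of 1 the centred medians of complexes III and V in mutants were -0.13 and -0.081, below 0 as in siblings.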

How the results depend on the processing

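The limits are those of 2 libraries per group and 1 per fraction and genotype. Over complexes I to V the median log2 fold change of mutants over siblings, 0.07, was 0.050 with a filter of 5 RPKM, 0.034 with limma on log2(RPKM + 1), 0.031 on log2(RPKM + 5) and 0.035 with the authors' totals. Leaving out 1 library gave -0.00010 to 0.10 (0.038 without sibling replicate 2), and without mutant replicate 1 complexes I and IV turned to -0.052 and -0.048. Without the replicate block this median was 0.047. In that unpaired fit no gene of the set was called for mutants over controls (0), as for all genes (0 against siblings and 0 against controls, where the paired fit called 118 higher and 59 lower, and 194 higher and 159 lower); the cause was not tested.

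For mutants over siblings DESeq2 called 4 genes of the set and leaving out 1 library gave 0 to 8 (8 without control replicate 1, 7 without control replicate 2, where over all genes 1126 and 1075 were called higher and 1105 and 1101 lower). For mutants over controls listed reads as library size gave 0 calls (203 higher and 158 lower over all genes), DESeq2 13, limma on log2(RPKM + 1) 2 (253 higher and 193 lower), and leaving out 1 library 0 to 23 (8 without control replicate 1, 23 without control replicate 2, where over all genes 1151 and 857 were called higher and 1230 and 881 lower). Without control replicate 1, atp5ia turned to -0.28 in mutants over controls (adjusted p = 0.187 by edgeR). For siblings over controls leaving out 1 library gave 0 to 2 calls (2 without control replicate 2, where over all genes 90 were called higher and 43 lower). Over all genes DESeq2 called 617 higher and 581 lower for mutants over siblings, 864 and 857 for mutants over controls and 31 and 63 for siblings over controls.

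The fraction values depended on the centring and the pseudocount. In siblings the median nucleus to cytoplasm difference of complexes I to V was -0.38 as deposited, -0.28 with no filter and -0.055 with a filter of 5 RPKM. In mutants it was -0.57 as deposited, 0.85 with a pseudocount of 0.1, 0.0048 with 5, 0.11 with no filter, 0.61 with a filter of 5 RPKM and 0.95 with TMM scaling. As deposited, complexes I, III, IV and V stood at -0.57, -0.73, -0.37 and -0.63 in mutants, and with a pseudocount of 5 complexes III and V stood at -0.13 and -0.081. The nuclear difference of mutants minus siblings was -0.22 as deposited (complexes I, III and V at -0.17, -0.45 and -0.35), 0.93 with a pseudocount of 0.1, 0.22 with 5, 0.33 with no filter and 1.01 with TMM scaling. The nuclear difference between the medians of members under 750 bases and of 1500 bases and over was 0.889 to 1.26 in all settings run for it, which were chosen after seeing the data.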
